A study of Mus musculus with 32 samples.

Results

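The genes described here encode the release machinery of the presynaptic terminal and the cytoskeleton of neurons. They were named as a list of 36 genes, from synaptic vesicle proteins such as Snap25, Syt1 and Syp to neurofilaments, neuronal tubulin and neuronal identity markers, and were read in mouse brains that carried a B cell lymphoma. For each gene the probe set that carries only its symbol and has the highest mean over all 32 arrays was used. That gave a value for 35 of the 36 genes, out of 19938 genes with such a probe set. The 36th, Vamp2, is covered by a probe set annotated to 2 genes, so it has no value here. All 35 lay above the array median on each of the 20 brain arrays and passed the intensity filter.

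A synaptic vesicle fuses with the terminal membrane when a SNARE complex of vesicle and plasma membrane proteins zips together. Synaptotagmins sense the calcium that triggers fusion, complexins clamp and promote it, and active zone proteins hold vesicles at the release site. Vesicular transporters load the vesicle with glutamate or GABA. Neurofilaments set axon calibre, and microtubules with their associated proteins carry the transport on which distant terminals depend.

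The series profiled BALB/c mouse brains with Affymetrix gene arrays after implantation of 500000 cells of BAL17, a B cell lymphoma line, or of BAL17VII, a line derived from it. The groups were 5 BAL17VII brains at day 21, 5 BAL17 brains at day 28, 5 BAL17 brains at day 21 and 5 brains injected with PBS at day 28, with 6 arrays each of cultured BAL17VII and BAL17 cells. All mice were wild type, and no PBS brains of day 21 were analysed, so implantation and day cannot be told apart where BAL17VII or BAL17 brains of day 21 are set against PBS brains. The labels describe the tissue as whole brain and the RNA as taken from frozen sections, and leave unsaid if the 6 arrays of each line stand for different cultures. Levels are log2 of the deposited intensity, listed for replicates 1 to 5. Differences are log2 differences of 2 group means with the standard error (SE) of limma, and a gene was called when its p adjusted over all 11965 genes tested was under 0.05. Because the arrays measure bulk tissue, fewer neurons and less RNA per neuron cannot be told apart.

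Correlations between arrays of a brain group ran from 0.974 to 0.989. A pair of brains is set apart in what follows. BAL17VII replicate 1 had a mean of 5.88 over 18 B lineage genes and of 5.58 over 19 mitosis genes, inside the PBS ranges of 5.78 to 5.98 and 5.48 to 5.61. BAL17 replicate 2 of day 21 differed from the other 4 brains of its group in 5 of the 35 genes. Results that rest on either brain are given with and without it.

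The genes as a group were lower in BAL17 brains than in PBS brains. Their mean log2 level was 9.81 ± 0.13 in BAL17VII brains, 9.60 ± 0.05 in BAL17 brains at day 28, 9.44 ± 0.07 in BAL17 brains at day 21 and 9.94 ± 0.08 in PBS brains (SD, n = 5 each). The 5 BAL17VII brains ran from 9.60 to 9.96 and overlapped the PBS range of 9.84 to 10.05. Each BAL17 brain lay below each PBS brain, with 9.55 to 9.68 at day 28 and 9.37 to 9.55 at day 21. Cultured BAL17VII and BAL17 cells had means of 6.14 ± 0.10 and 6.16 ± 0.08 (SD, n = 6 each). In 34 of the 35 genes every brain exceeded every line array, which held for 25% of all genes tested. The exception was Bsn, whose lowest brain read 6.74 and highest line array 7.13. Lines and brains carry different run numbers in the labels, so tissue and run cannot be told apart there.

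**Figure D1:**
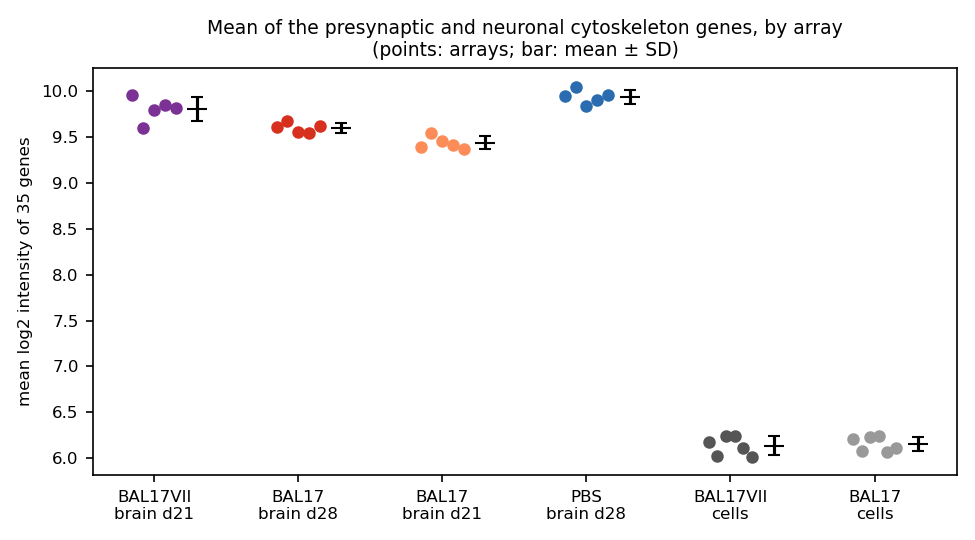
Mean log2 intensity of the 35 genes (vertical axis) in each of the 32 arrays, by group (horizontal axis), where points are arrays and bars are the mean ± SD. The BAL17 brains of both days lie below all 5 PBS brains, the BAL17VII brains overlap them, and the means of the cultured cells are 6.14 and 6.16.

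BAL17VII brains of day 21 differed from PBS brains in few of these genes. The neuronal calcium sensor gene Hpca fell by 0.50, Eno2, the neuronal enolase, fell by 0.41, the vesicle protein gene Sv2a fell by 0.40 and Mapt, which encodes tau, fell by 0.28 on the log2 scale. These 4 of 35 genes were called lower, against 1.64% of all genes tested, and 0 were called higher by limma (0 at an unadjusted p under 0.05), against 3.37% of all genes. The 5 BAL17VII values lay below all PBS values in 3 genes, against 1.76% of all genes. The median difference was -0.11, beside -0.03 over all genes, and 29 of the 35 differences were negative (26 with median centring and 30 with quantile normalization). The count depended on single brains. Without BAL17VII replicate 2, PBS replicate 4 or PBS replicate 5 the count was 0, without BAL17VII replicate 3 it was 1, without PBS replicate 2 it was 2, and without BAL17VII replicate 4 it was 8, with Syt4, Syn1, Rims1 and Rbfox3 added. Without BAL17VII replicate 1 the count was 4 and the mean difference -0.18, and without BAL17VII replicate 2 the mean difference was -0.08 (with all 5 brains it was -0.14).

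In BAL17 brains at day 28, 21 of the 35 genes fell against PBS brains, against 21.6% of all genes tested called lower. By limma 0 rose (0 at an unadjusted p under 0.05), against 8.87% of all genes. In 19 genes all 5 values lay below all PBS values, which held for 15.4% of all genes. The differences ran from -1.09 for Sv2c to 0.02 for Bsn with a median of -0.34, beside -0.10 over all genes. None of the 21 changed sign under another scaling, while Cplx2, Rbfox3, Slc17a7, Sv2b and Syt1 did with median centring and Slc17a7 and Snap25 with quantile normalization. All 3 neurofilament genes and all 6 microtubule and growth cone genes were among the 21, and 0 of 4 active zone and 0 of 3 SNARE genes were by limma (1 and 0 at an unadjusted p under 0.05).

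BAL17 brains at day 21 had the broadest fall. Here 29 of the 35 genes were lower than in PBS brains, against 32% of all genes tested, and 0 were higher by limma (0 at an unadjusted p under 0.05), against 13.1% of all genes. In 23 genes all 5 values lay below all PBS values, which held for 18.1% of all genes. The median difference was -0.50, beside -0.11 over all genes, and the largest falls were those of Eno2 (-0.85), Mapt (-0.84) and Tubb3 (-0.79). With each array centred on its median, which moved the median of all genes to 0.01 (otherwise -0.11), 25 genes were called and the median of the 35 was -0.38. Syt1, Sv2b, Pclo and Rbfox3 then lost their call, and Snap25 changed sign. Without BAL17 replicate 2 of day 21 the count was 29 and the mean difference -0.53 (with it, -0.50). For the centred fit and the fit without that brain, calls over all genes were not counted, so the 32% is no background for them.

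A narrower background is given by the 2986 genes whose brain values all exceeded the line values, as did 34 of the 35. Of these, 4.29% were called lower in BAL17VII brains, 54.1% in BAL17 brains at day 28 and 73.8% in BAL17 brains at day 21, each against PBS brains. Their median differences were -0.11, -0.29 and -0.39. The 4, 21 and 29 calls among 35 genes are shares nearer to that background than to all genes, and the medians of the 35 were -0.11, -0.34 and -0.50. Of the 35 genes, 18 were called lower in BAL17 brains at both days, 11 at day 21 without a call at day 28, 3 at day 28 without a call at day 21 (Slc17a6, Slc32a1 and Nefh), and 3 at neither (Snap25, Vamp1 and Bsn). Both days use the same 5 PBS brains, and calls at both days were not counted over all genes. With 54.1% and 73.8% of the narrower background called lower, the overlap is not read as particular to the 35 genes.

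**Figure D2:**
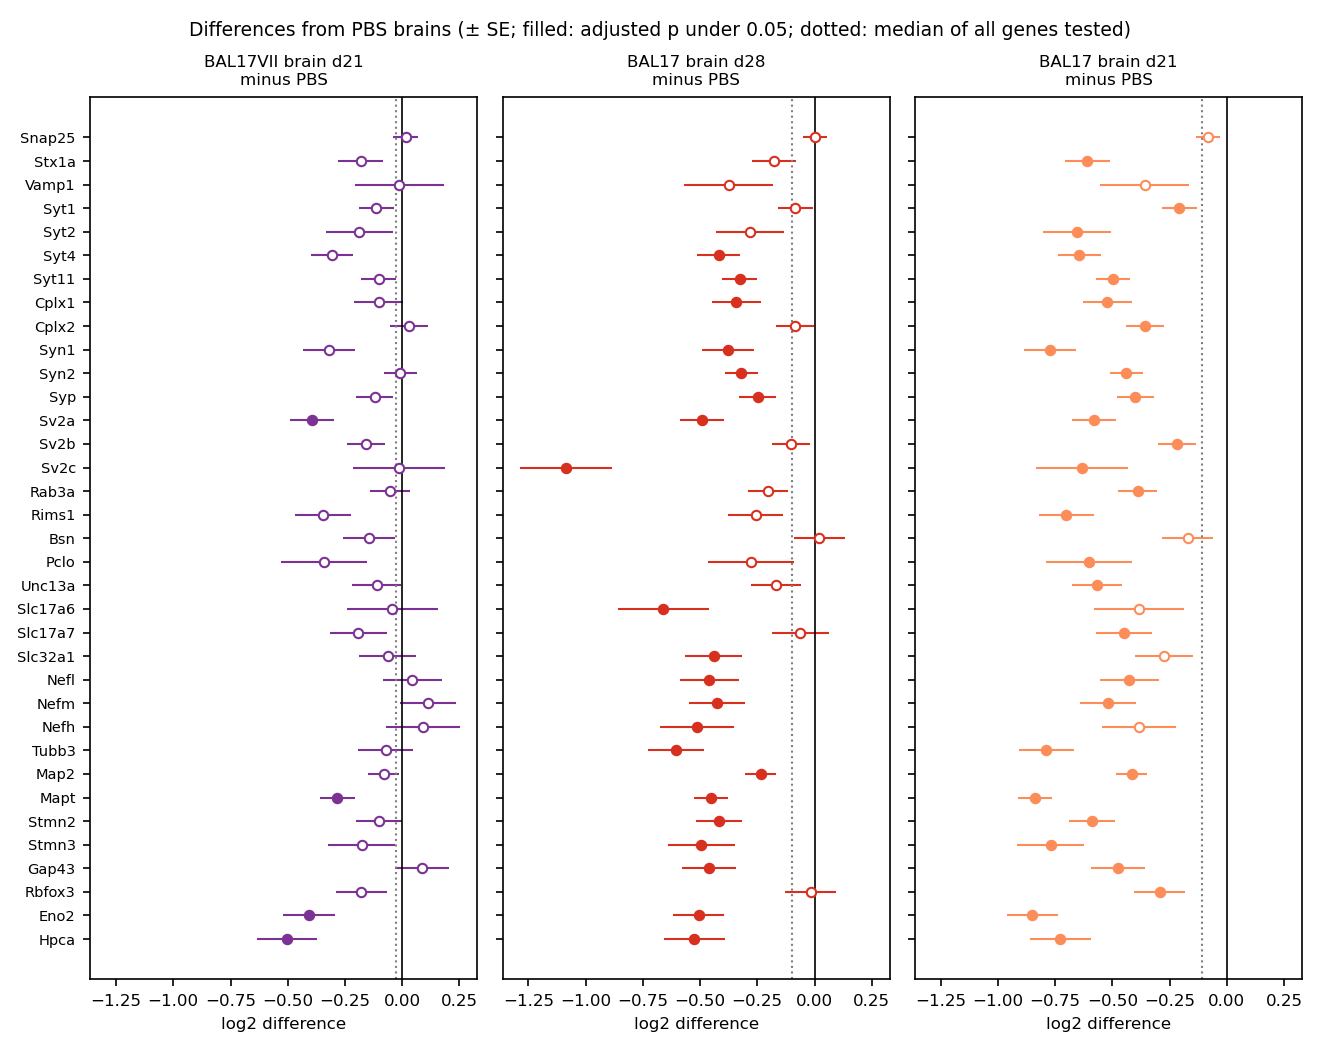
Log2 difference from PBS brains (horizontal axis) of each of the 35 genes (rows), with bars of ± SE, in BAL17VII brains at day 21, BAL17 brains at day 28 and BAL17 brains at day 21. Filled points have an adjusted p under 0.05 (4, 21 and 29 genes), and the dotted line is the median of all genes tested. Sv2c has the largest fall at day 28, and Eno2 and Mapt at day 21.

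BAL17VII and BAL17 brains of the same day differed. At day 21, 23 of the 35 genes were higher in BAL17VII brains than in BAL17 brains, against 17.3% of all genes tested, and 0 were lower by limma (0 at an unadjusted p under 0.05), against 6.82% of all genes. Of the 2986 genes that read higher in brains than in lines, 44.9% were called higher. In 9 genes all BAL17VII values lay above all BAL17 values, which held for 6.62% of all genes. The median difference was 0.39, beside 0.07 over all genes. The difference was 0.72 for Tubb3, 0.63 for Nefm, 0.62 for Sv2c and 0.59 for Stmn3, and all 3 neurofilament and all 6 microtubule and growth cone genes were called. Without BAL17VII replicate 1 the count was 19 and the mean difference 0.33, and without BAL17 replicate 2 it was 25 and 0.39 (with all brains, 23 and 0.37). The calls of Nefh, Rims1, Sv2c, Syp and Syt2 were each lost when some single brains were left out, Sv2c with 0.42 (adjusted p = 0.101) without BAL17VII replicate 1. Scaling mattered too. Nefh and Rims1 lost the call with quantile normalization (adjusted p = 0.0541 and 0.0751). Nefh, Rims1 and Syt2 lost it with median centring (adjusted p = 0.0601, 0.135 and 0.0646). Syt4 lost it with only the compared arrays or all 32 arrays (adjusted p = 0.0555 and 0.0662). Hpca and Vamp1 gained a call without BAL17 replicate 2 (0.34 and 0.51), and Sv2a and Slc17a7 without BAL17VII replicate 2 (0.29 and 0.34).

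Between the 2 days of BAL17 brains, Stx1a and Mapt rose at day 28 over day 21, by 0.43 and 0.38. These were 2 of 35 genes, against 1.01% of all genes tested called higher, and 0 were called lower by limma (1 at an unadjusted p under 0.05), against 0.493% of all genes. Of the 2986 genes that read higher in brains than in lines, 3.18% were called higher. In 10 genes all day 28 values lay above all day 21 values, which held for 3.48% of all genes. The median difference was 0.18, beside 0.01 over all genes. For 6 genes the difference was negative, with -0.45 for Sv2c, -0.28 for Slc17a6, -0.17 for Slc32a1 and -0.13 for Nefh, none of them called. The count was 4 without BAL17 replicate 2 of day 21, and 1 without each of day 21 replicates 1, 3 and 5 and day 28 replicates 1 and 3.

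**Figure D3:**
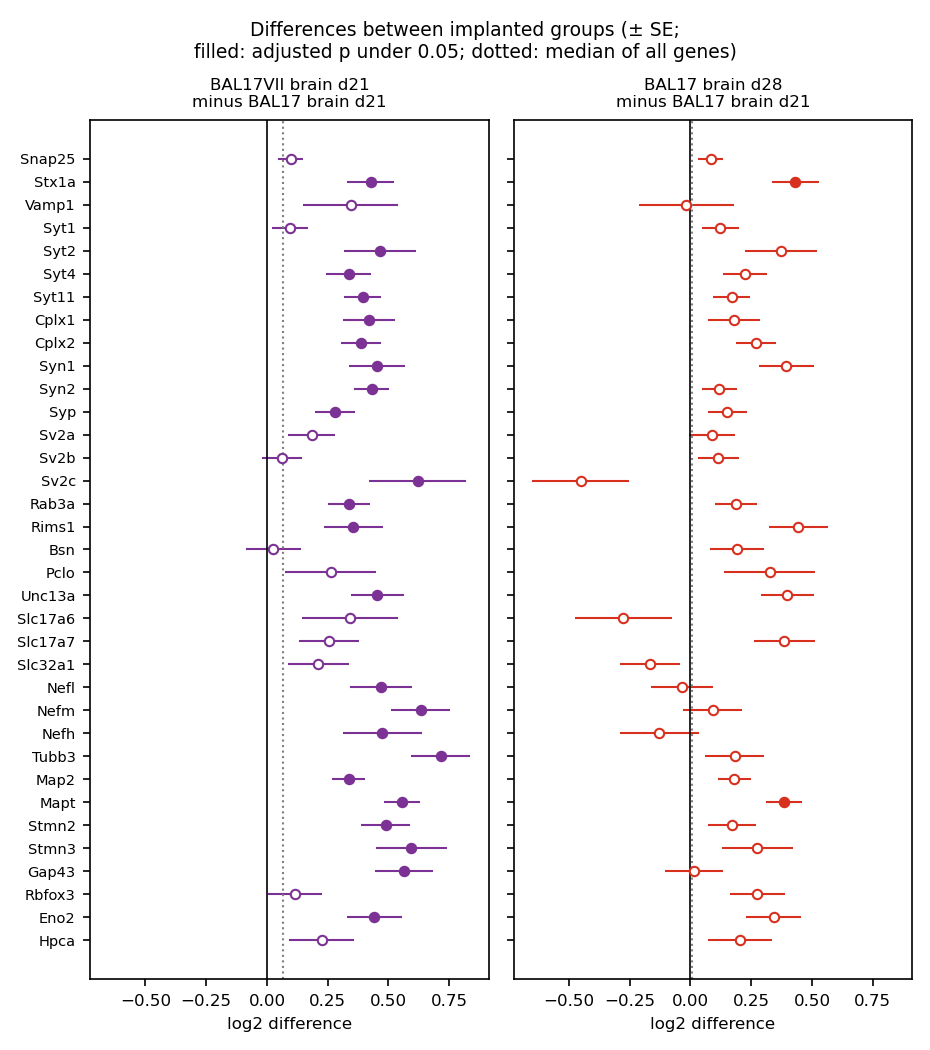
Log2 difference (horizontal axis) of each of the 35 genes (rows), with bars of ± SE, for BAL17VII minus BAL17 brains at day 21 and for BAL17 brains at day 28 minus day 21. Filled points have an adjusted p under 0.05 (23 and 2 genes), and the dotted line is the median of all genes tested. All 35 points of the BAL17VII comparison lie above 0 (33 with median centring, where Bsn and Sv2b turn), and Sv2c, Slc17a6 and Slc32a1 lie lowest in the comparison of days.

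Markers of other cells moved alongside. Their counts, and those of region markers below, stand beside the shares called against PBS brains. In BAL17VII brains, BAL17 brains at day 28 and at day 21, 1.64%, 21.6% and 32% of all genes tested were called lower. Called higher were 3.37%, 8.87% and 13.1%. Of genes above the lines in every brain, 4.29%, 54.1% and 73.8% were called lower. The summed intensity of 18 B lineage genes was 1307 to 3189 in BAL17VII brains, 3456 to 4380 in BAL17 brains at day 28, 2952 to 3924 in BAL17 brains at day 21 and 1204 to 1381 in PBS brains, against 11136 to 14056 in cultured BAL17VII and 10353 to 10871 in cultured BAL17 cells. Of the 14 of them that were tested, 11, 13 and 13 rose against PBS brains, Cd79b by 2.0 ± 0.30, 2.98 ± 0.30 and 2.84 ± 0.30 (SE). In BAL17 brains at day 21, 1 of the 14 was called lower. RMA gives no zeros, so no marker is at 0. Mitosis genes rose in 16, 19 and 19 of 19. A gene was tested if it passed the array median, 6.35 to 6.54 in brains, on at least 5 brain arrays. The PBS means of the B lineage, mitosis and macrophage lists, 5.91, 5.57 and 5.83, lay below that. Genes of these lists could thus be tested because of the implanted brains alone, which favours a rise, so their counts of rises are description only. Myelin genes fell in 14 of 14 in BAL17 brains at day 28 and in 13 of 14 at day 21, and in 0 of 14 in BAL17VII brains by limma (0 at an unadjusted p under 0.05). Astrocyte genes fell in 5 of 11 at day 28 and in 8 of 11 at day 21 in BAL17 brains, microglia genes in 1 of 8 and in 8 of 8, and endothelium genes in 4 of 8 and in 5 of 8. In BAL17VII brains 0, 0 and 1 of these fell by limma (3, 0 and 1 at an unadjusted p under 0.05). Choroid plexus genes fell in 8 of 8 at day 28 and in 0 of 8 at day 21 by limma (1 at an unadjusted p under 0.05). At day 21, 1 of the 8, Slc4a5, was called higher in BAL17 brains by 0.21 ± 0.08 (SE, adjusted p = 0.038). Of 7 macrophage genes tested, 2 rose in BAL17VII brains, 3 in BAL17 brains at day 28 and 4 at day 21, where 1 fell. The part of these shifts in the falls of the neuronal genes was not tested.

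Markers of brain regions also varied between brains of 1 group. The mean of 11 cerebellum genes ran from 7.91 to 9.50 in BAL17VII brains, 8.96 to 9.27 in BAL17 brains at day 28, 8.13 to 9.02 in BAL17 brains at day 21 and 8.82 to 9.58 in PBS brains. Of these 11, 1 was called lower than in PBS brains in BAL17VII brains, 1 in BAL17 brains at day 28 and 10 at day 21, with medians of -0.79, -0.23 and -0.74. Striatum genes fell in 7 of 8 at day 28 in BAL17 brains, with a mean of 8.04 ± 0.36 there, 9.01 ± 0.12 at day 21 and 9.11 ± 0.50 in PBS brains (SD, n = 5 each). BAL17VII replicate 1 and PBS replicate 2 were the highest of their groups in Sv2c, Vamp1, Slc17a6, Slc32a1, Nefl, Nefm and Nefh. In the same 2 brains the mean of 9 brainstem genes was highest of their groups (6.87 and 6.85) and that of the cerebellum genes lowest (7.91 and 8.82). Pituitary hormone genes were high in some BAL17VII brains. The mean of 8 pituitary genes ran from 5.81 to 8.99 there, 5.66 to 5.79 in BAL17 brains at day 28, 5.68 to 5.91 in BAL17 brains at day 21 and 5.83 to 6.65 in PBS brains. Gh, the growth hormone gene, was higher in BAL17VII than in PBS brains by 4.0 ± 0.81 (SE, adjusted p = 0.00495), and Prl, the prolactin gene, was higher in BAL17VII than in BAL17 brains at day 21 by 6.10 ± 1.06 (SE, adjusted p = 0.000521). From PBS brains Prl differed by 3.33 ± 1.06 (SE, adjusted p = 0.0701) in BAL17VII brains. In BAL17 brains it differed by -3.13 at day 28 and -2.77 at day 21 (adjusted p = 0.0293 and 0.0367). Only 3 of the 8 pituitary genes were tested. The part of sampled region in the results was not tested.

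**Figure D4:**
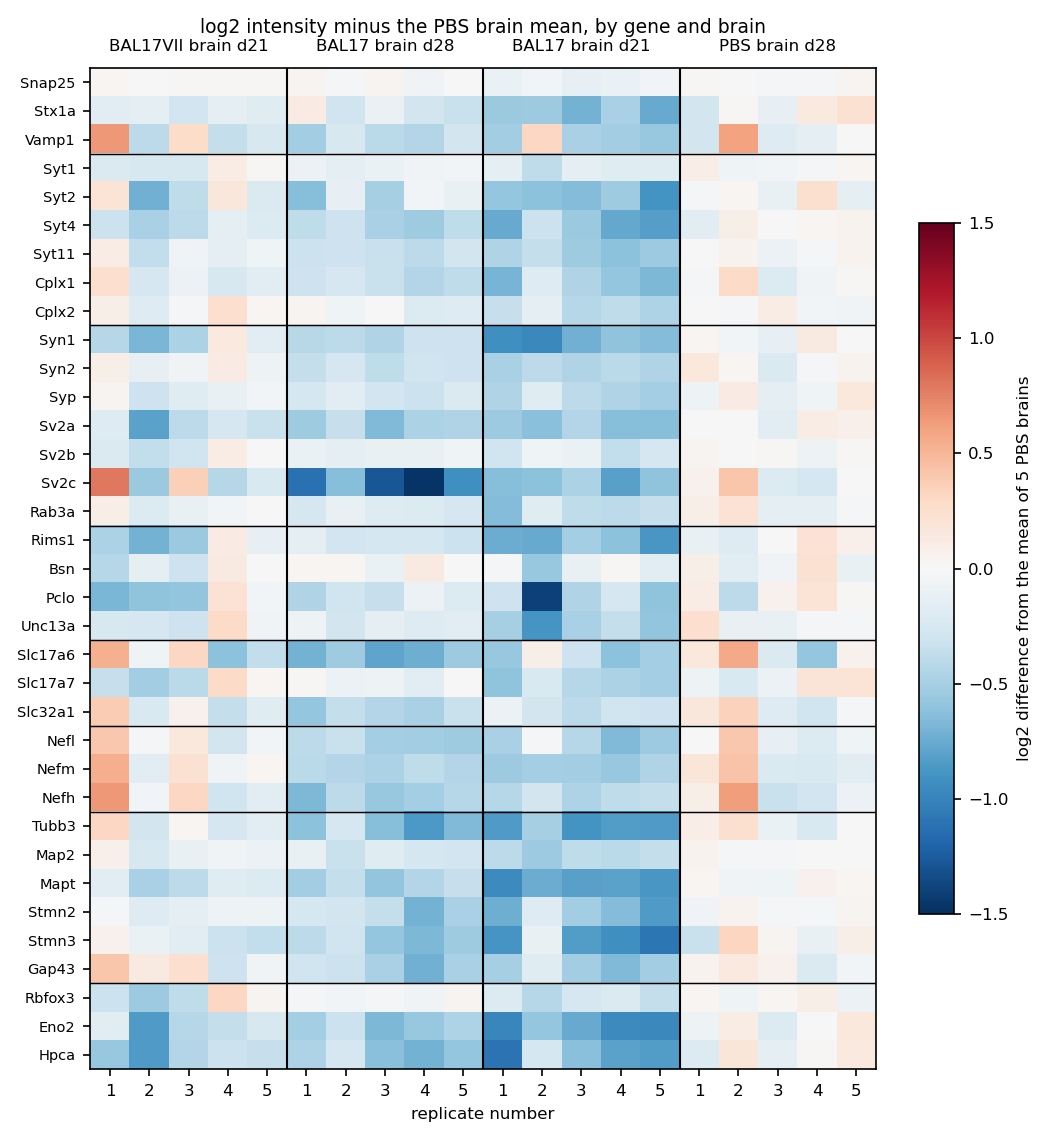
Log2 intensity minus the mean of the 5 PBS brains (colour scale) for each of the 35 genes (rows, divided by role) in each of the 20 brains (columns, by group and replicate number). Blue is below and red above the PBS mean. BAL17 brains at day 21 are blue in nearly every row, and BAL17VII replicate 1 and PBS replicate 2 share red cells in Sv2c, Vamp1, Slc17a6 and the neurofilament genes.

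The promoters of these genes were searched for the 2 parts of RE1, the element through which the repressor REST silences neuronal genes outside neurons, and for the GC box. RefSeq promoters of GRCm38.p6, which run from 250 bases before to 50 bases after a start, were listed for 27 of the 36 genes, with 37 starts. The left part, searched as TCAGCACC on both strands, was found in 3 of the 37 promoters (8.11%), against 1.65% of 32851 promoters, and the right part, GGACAGC, in 4 (10.8%), against 6.56%. The GC box GGGCGG was found in 22 of the 37 (59.5%), against 35.7%. The left part was in Syn1, Tubb3 and Unc13a, and the right part in Tubb3, Unc13a, Hpca and Map2. A match is only a description of the letters. The 3 promoters with the left part are shown 5′ to 3′ on the strand of the gene, at chrX:20920869-20921168 (minus strand) for Syn1, chr8:123411303-123411602 (plus strand) for Tubb3 and chr8:71671708-71672007 (minus strand) for Unc13a, with matches to either part of RE1 in capitals, on whichever strand they lie.
Syn1: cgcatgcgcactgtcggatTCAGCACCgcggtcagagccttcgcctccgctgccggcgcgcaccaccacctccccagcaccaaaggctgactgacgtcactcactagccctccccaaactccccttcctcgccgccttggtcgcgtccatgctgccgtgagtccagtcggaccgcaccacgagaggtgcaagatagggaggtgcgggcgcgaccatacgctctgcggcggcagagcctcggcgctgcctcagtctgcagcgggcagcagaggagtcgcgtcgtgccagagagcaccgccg
Tubb3: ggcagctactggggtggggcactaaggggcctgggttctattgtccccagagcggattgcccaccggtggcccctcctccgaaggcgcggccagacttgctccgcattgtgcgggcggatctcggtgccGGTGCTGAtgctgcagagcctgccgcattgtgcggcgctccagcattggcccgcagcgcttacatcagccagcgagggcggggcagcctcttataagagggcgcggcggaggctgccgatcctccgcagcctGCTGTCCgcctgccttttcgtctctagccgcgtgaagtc
Unc13a: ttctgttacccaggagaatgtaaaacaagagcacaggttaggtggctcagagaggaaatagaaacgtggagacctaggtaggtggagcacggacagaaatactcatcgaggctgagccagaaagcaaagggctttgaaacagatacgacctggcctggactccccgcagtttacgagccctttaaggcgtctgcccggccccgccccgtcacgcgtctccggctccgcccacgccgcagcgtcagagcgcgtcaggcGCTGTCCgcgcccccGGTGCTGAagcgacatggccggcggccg

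Among the SNARE genes, the syntaxin gene Stx1a was called and Snap25 and Vamp1 were not. Snap25, the plasma membrane SNARE of nerve terminals, read 13.07, 13.03, 13.06, 13.06 and 13.06 in BAL17VII brains and 13.08, 13.01, 13.08, 12.99 and 13.05 in BAL17 brains at day 28. Snap25 levels were 12.94, 12.99, 12.92, 12.94 and 12.999 in BAL17 brains at day 21, against 13.05, 13.05, 13.01, 13.02 and 13.08 in PBS brains. All 5 BAL17 values of day 21 were below all PBS values. Its differences from PBS brains were 0.01 ± 0.05 (SE, adjusted p = 0.908) in BAL17VII brains, 0.0006 ± 0.05 (SE, adjusted p = 0.994) at day 28 and -0.08 ± 0.05 (SE, adjusted p = 0.205) at day 21, with the last changing sign under median centring. Stx1a, the syntaxin that pairs with SNAP-25, read 8.10, 8.12, 7.98, 8.14 and 8.08 in BAL17VII brains and 8.39, 7.96, 8.16, 7.99 and 7.93 in BAL17 brains at day 28. Stx1a levels were 7.71, 7.72, 7.56, 7.78 and 7.51 in BAL17 brains at day 21, against 7.99, 8.28, 8.14, 8.41 and 8.50 in PBS brains. All BAL17 brains of day 21 were below all others. Stx1a fell by 0.61 ± 0.10 (SE, adjusted p = 4.65e-05) in BAL17 brains at day 21 against PBS brains, to 65.6% of the PBS intensity, and was higher by 0.43 ± 0.10 (SE, adjusted p = 0.00381) in BAL17VII than in BAL17 brains at day 21. In BAL17 brains at day 28 it was higher than at day 21 by 0.43 ± 0.10 (SE, adjusted p = 0.0275), a call that was lost without BAL17 replicates 1, 3 or 5 of day 21 or 1 or 3 of day 28, with 0.36 to 0.45. Its difference at day 28 from PBS brains was -0.18 ± 0.10 (SE, adjusted p = 0.17), and -0.25 (adjusted p = 0.0475) without BAL17 replicate 1 of day 28. Vamp1, a vesicle SNARE, read 10.24, 9.19, 9.86, 9.23 and 9.35 in BAL17VII brains and 9.07, 9.34, 9.18, 9.15 and 9.32 in BAL17 brains at day 28. Vamp1 levels were 9.07, 9.90, 9.10, 9.06 and 9.02 in BAL17 brains at day 21, against 9.31, 10.19, 9.40, 9.45 and 9.59 in PBS brains. BAL17VII replicates 1 and 3, BAL17 replicate 2 of day 21 and PBS replicate 2 stood high, and the groups overlapped. The difference of BAL17 brains at day 21 from PBS brains was -0.36 ± 0.20 (SE, adjusted p = 0.137), and -0.53 (adjusted p = 0.0202) without BAL17 replicate 2. Vamp1 also gained a call with array weights at day 21 (-0.39, adjusted p = 0.0319) and, with only the compared arrays, at day 28 (-0.38, adjusted p = 0.0438). Between BAL17VII and BAL17 brains at day 21 it gained one with array weights (0.42, adjusted p = 0.0447) and without BAL17 replicate 2 (0.51, adjusted p = 0.0343).

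All 6 genes of synaptotagmins and complexins fell in BAL17 brains at day 21, and 3 of 6 at day 28. Beside these stand 32% and 21.6% of all genes tested, and 73.8% and 54.1% of genes above the lines in every brain. Syt1, the fast calcium sensor of forebrain terminals, read 11.93, 11.90, 11.90, 12.26 and 12.15 in BAL17VII brains and 12.05, 12.01, 12.04, 12.09 and 12.10 in BAL17 brains at day 28. Syt1 levels were 11.99, 11.76, 11.99, 11.96 and 11.96 in BAL17 brains at day 21, against 12.24, 12.07, 12.10, 12.13 and 12.17 in PBS brains. BAL17 replicate 2 of day 21 was the lowest of the 20. Syt1 fell by 0.21 ± 0.08 (SE, adjusted p = 0.029) in BAL17 brains at day 21 against PBS brains, but without that brain the difference was -0.16 (adjusted p = 0.0759), and without PBS replicates 1 or 5 it was -0.18 and -0.20 (adjusted p = 0.0731 and 0.0554). At day 28 its difference was -0.08 ± 0.08 (SE, adjusted p = 0.405), and -0.27 (adjusted p = 0.0247) with quantile normalization, while median centring turned its sign. Syt2, the fast sensor of hindbrain and inhibitory terminals, read 8.08, 7.16, 7.49, 8.04 and 7.66 in BAL17VII brains and 7.24, 7.76, 7.38, 7.83 and 7.76 in BAL17 brains at day 28. Syt2 levels were 7.30, 7.26, 7.23, 7.34 and 6.98 in BAL17 brains at day 21, against 7.85, 7.90, 7.76, 8.12 and 7.74 in PBS brains. The BAL17 brains of day 21 were all below the PBS brains. Syt2 fell by 0.65 ± 0.15 (SE, adjusted p = 0.00125) there. It was higher in BAL17VII than in BAL17 brains at day 21 by 0.47 ± 0.15 (SE, adjusted p = 0.0258), which was 0.37 (adjusted p = 0.0911) without BAL17VII replicate 1, 0.38 (adjusted p = 0.07) without replicate 4 and 0.41 (adjusted p = 0.0765) without BAL17 replicate 5. With median centring that difference of Syt2 was 0.38 (adjusted p = 0.0646). Syt4, a synaptotagmin without the usual calcium response, read 10.59, 10.43, 10.52, 10.78 and 10.71 in BAL17VII brains and 10.53, 10.60, 10.43, 10.38 and 10.53 in BAL17 brains at day 28. Syt4 levels were 10.16, 10.59, 10.35, 10.15 and 10.09 in BAL17 brains at day 21, against 10.74, 11.002, 10.92, 10.94 and 10.97 in PBS brains. No BAL17 brain of either day reached the PBS range. Against PBS brains Syt4 fell by 0.42 ± 0.09 (SE, adjusted p = 0.00214) at day 28 and fell by 0.64 ± 0.09 (SE, adjusted p = 1.33e-05) at day 21, while in BAL17VII brains the difference was -0.31 ± 0.09 (SE, adjusted p = 0.0557). Syt4 gained a call in BAL17VII brains with quantile normalization (-0.39, adjusted p = 0.00925), median centring (-0.28, adjusted p = 0.0401), a stricter filter, trended and robust eBayes or array weights (adjusted p = 0.0485, 0.045 and 0.0341), and without BAL17VII replicate 4 or PBS replicate 1 (adjusted p = 0.0225 and 0.0461).

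Cplx1, the main complexin of inhibitory terminals, read 10.69, 10.18, 10.35, 10.20 and 10.27 in BAL17VII brains and 10.13, 10.19, 10.11, 10.01 and 10.06 in BAL17 brains at day 28. Cplx1 levels were 9.74, 10.24, 9.98, 9.86 and 9.76 in BAL17 brains at day 21, against 10.40, 10.72, 10.23, 10.38 and 10.46 in PBS brains. Replicate 1 of the BAL17VII brains and replicate 2 of the PBS brains were high. Cplx1 fell by 0.34 ± 0.11 (SE, adjusted p = 0.0201) in BAL17 brains at day 28, which was -0.27 (adjusted p = 0.0694) without PBS replicate 2, and fell by 0.52 ± 0.11 (SE, adjusted p = 0.000534) at day 21. Cplx2, the main complexin of excitatory terminals, read 8.31, 8.02, 8.19, 8.47 and 8.25 in BAL17VII brains and 8.26, 8.15, 8.21, 8.01 and 8.02 in BAL17 brains at day 28. Cplx2 levels were 7.87, 8.06, 7.79, 7.83 and 7.75 in BAL17 brains at day 21, against 8.22, 8.19, 8.33, 8.17 and 8.16 in PBS brains. The day 21 BAL17 brains lay below the PBS range and the day 28 ones across it. Cplx2 fell by 0.36 ± 0.08 (SE, adjusted p = 0.00158) in BAL17 brains at day 21, and from PBS brains differed by -0.09 ± 0.08 (SE, adjusted p = 0.443) at day 28. Syt11, a synaptotagmin that does not bind calcium, fell by 0.33 ± 0.08 (SE, adjusted p = 0.00317) at day 28 and fell by 0.50 ± 0.08 (SE, adjusted p = 2.73e-05) at day 21.

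The 7 genes of vesicle membrane proteins and vesicle-bound phosphoproteins all fell in BAL17 brains at day 21 and 5 of them at day 28. For comparison, 32% and 21.6% of all genes tested were called lower, and 73.8% and 54.1% of genes above the lines in every brain. The SV2 glycoproteins, which all synaptic vesicles carry in some combination, are given first. Sv2a, the widespread form and the binding site of the antiseizure drug levetiracetam, read 10.75, 10.14, 10.55, 10.69 and 10.60 in BAL17VII brains and 10.40, 10.60, 10.28, 10.47 and 10.50 in BAL17 brains at day 28. Sv2a levels were 10.39, 10.32, 10.50, 10.30 and 10.30 in BAL17 brains at day 21, against 10.93, 10.94, 10.77, 11.05 and 11.02 in PBS brains. No implanted brain reached the PBS range. Sv2a fell by 0.40 ± 0.10 (SE, adjusted p = 0.018) in BAL17VII brains, fell by 0.49 ± 0.10 (SE, adjusted p = 0.000791) in BAL17 brains at day 28 and fell by 0.58 ± 0.10 (SE, adjusted p = 6.46e-05) at day 21. The call in BAL17VII brains was lost without BAL17VII replicate 2 (-0.29, adjusted p = 0.0535), PBS replicate 4 (-0.37, adjusted p = 0.0508) or PBS replicate 5 (-0.38, adjusted p = 0.0512). Sv2b, a forebrain form, read 10.40, 10.25, 10.32, 10.73 and 10.61 in BAL17VII brains and 10.52, 10.49, 10.51, 10.50 and 10.56 in BAL17 brains at day 28. Sv2b levels were 10.32, 10.55, 10.52, 10.25 and 10.37 in BAL17 brains at day 21, against 10.66, 10.62, 10.64, 10.54 and 10.64 in PBS brains. The BAL17VII and day 21 BAL17 brains spread more widely than the other brains. Sv2b fell by 0.22 ± 0.08 (SE, adjusted p = 0.0362) in BAL17 brains at day 21, a call lost when any of 7 single brains was left out, with -0.18 to -0.22. Sv2c, the form of basal ganglia and brainstem, read 9.47, 8.12, 9.03, 8.25 and 8.45 in BAL17VII brains and 7.56, 8.04, 7.40, 7.21 and 7.76 in BAL17 brains at day 28. Sv2c levels were 8.03, 8.06, 8.20, 7.86 and 8.07 in BAL17 brains at day 21, against 8.75, 9.09, 8.48, 8.41 and 8.67 in PBS brains. At day 28 all BAL17 brains were below all PBS brains, and BAL17VII replicate 1 was the highest of the 20. Sv2c fell by 1.09 ± 0.20 (SE, adjusted p = 0.000453) at day 28, to 47.1% of the PBS intensity, and fell by 0.63 ± 0.20 (SE, adjusted p = 0.0137) at day 21 in BAL17 brains, while the 2 days differed by -0.45 ± 0.20 (SE, adjusted p = 0.321). Striatum markers moved with it at day 28, as given above, and their part in it was not tested.

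Syn2, a synapsin that tethers reserve vesicles, read 9.65, 9.43, 9.50, 9.68 and 9.48 in BAL17VII brains and 9.21, 9.30, 9.18, 9.25 and 9.25 in BAL17 brains at day 28. Syn2 levels were 9.07, 9.16, 9.11, 9.15 and 9.10 in BAL17 brains at day 21, against 9.71, 9.59, 9.34, 9.53 and 9.61 in PBS brains. Every BAL17 brain lay below every PBS brain, and the BAL17VII brains overlapped the PBS range. Syn2 was higher in BAL17VII than in BAL17 brains at day 21 by 0.43 ± 0.07 (SE, adjusted p = 0.000332), and it fell by 0.32 ± 0.07 (SE, adjusted p = 0.00226) in BAL17 brains at day 28 and fell by 0.44 ± 0.07 (SE, adjusted p = 5.15e-05) at day 21 against PBS brains. Its relative Syn1 fell by 0.38 ± 0.11 (SE, adjusted p = 0.0172) at day 28 and fell by 0.77 ± 0.11 (SE, adjusted p = 1.99e-05) at day 21, to 58.6% of the PBS intensity. With median centring the day 28 difference of Syn1 was -0.27 (adjusted p = 0.1). Syp, the vesicle protein synaptophysin, fell by 0.40 ± 0.08 (SE, adjusted p = 0.000486) in BAL17 brains at day 21. Syp also fell by 0.25 ± 0.08 (SE, adjusted p = 0.0251) at day 28, which was -0.14 (adjusted p = 0.0997) with median centring and had no call with all 32 arrays (adjusted p = 0.109). That difference also missed the threshold without PBS replicates 2 or 5 (-0.22 and -0.21) or without day 28 replicates 3 or 4 (-0.24 and -0.23). Rab3a, the vesicle GTPase, fell by 0.39 ± 0.09 (SE, adjusted p = 0.0011) at day 21 and differed by -0.20 ± 0.09 (SE, adjusted p = 0.0794) at day 28.

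The active zone genes fell in 3 of 4 cases in BAL17 brains at day 21 and in 0 of 4 at day 28 by limma (1, Rims1, at an unadjusted p under 0.05). Shares called lower were 32% and 21.6% of all genes tested, and 73.8% and 54.1% of genes above the lines in every brain. Rims1, a scaffold that recruits calcium channels, read 9.65, 9.42, 9.56, 10.25 and 9.996 in BAL17VII brains and 9.98, 9.84, 9.85, 9.86 and 9.80 in BAL17 brains at day 28. Rims1 levels were 9.38, 9.37, 9.61, 9.51 and 9.25 in BAL17 brains at day 21, against 10.01, 9.92, 10.13, 10.34 and 10.20 in PBS brains. All day 28 values of BAL17 brains lay above all day 21 values. Rims1 fell by 0.70 ± 0.12 (SE, adjusted p = 0.000103) at day 21 against PBS brains and differed by -0.26 ± 0.12 (SE, adjusted p = 0.11) at day 28, and the 2 days differed by 0.44 ± 0.12 (SE, adjusted p = 0.0673). It was higher in BAL17VII than in BAL17 brains at day 21 by 0.35 ± 0.12 (SE, adjusted p = 0.0376), but 0.24 (adjusted p = 0.11) without BAL17VII replicate 4, 0.30 (adjusted p = 0.097) without replicate 5 and 0.31 to 0.38, all without a call, without BAL17 replicates 1, 4 or 5. Rims1 also lost this call with quantile normalization (0.31, adjusted p = 0.0751) and with median centring (0.26, adjusted p = 0.135). Unc13a, which primes vesicles, read 8.84, 8.83, 8.77, 9.37 and 9.03 in BAL17VII brains and 9.01, 8.80, 8.95, 8.89 and 8.93 in BAL17 brains at day 28. Unc13a levels were 8.58, 8.19, 8.59, 8.72 and 8.49 in BAL17 brains at day 21, against 9.34, 8.97, 8.96, 9.06 and 9.07 in PBS brains. The day 21 BAL17 brains were below every other brain. Unc13a fell by 0.57 ± 0.11 (SE, adjusted p = 0.000272) in BAL17 brains at day 21 relative to PBS brains, and was higher in BAL17VII brains than in these by 0.45 ± 0.11 (SE, adjusted p = 0.00508). Its 3 probe sets disagreed. The second had means of 7.96 at day 28 and 7.93 at day 21 in BAL17 brains, against 7.66 in PBS brains, and 8.41 and 8.48 in cultured BAL17VII and BAL17 cells. The third had 8.35 and 7.995 in BAL17 brains at day 28 and day 21, against 8.67 in PBS brains. With the mean of the 3, the BAL17VII difference from BAL17 brains at day 21 was 0.21 (adjusted p = 0.11). Bsn, which encodes the scaffold bassoon, read 6.88, 7.16, 6.999, 7.44 and 7.31 in BAL17VII brains and 7.33, 7.33, 7.21, 7.43 and 7.32 in BAL17 brains at day 28. Bsn levels were 7.27, 6.74, 7.19, 7.32 and 7.14 in BAL17 brains at day 21, against 7.40, 7.15, 7.25, 7.53 and 7.19 in PBS brains. The groups overlapped in every comparison with PBS brains. Bsn differed from PBS brains by -0.15 ± 0.11 (SE, adjusted p = 0.497) in BAL17VII brains, 0.02 ± 0.11 (SE, adjusted p = 0.907) at day 28 and -0.17 ± 0.11 (SE, adjusted p = 0.212) at day 21. Its mean was 7.23 over the 4 brain groups and 6.78 over the cultured lines, the smallest such gap among the members. The part of this gap in its differences was not tested. Pclo, which encodes the related scaffold piccolo, fell by 0.60 ± 0.19 (SE, adjusted p = 0.013) at day 21, where BAL17 replicate 2 read 8.84 and the other 4 brains 9.64 to 9.99.

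Of the vesicular transporters of glutamate and GABA, Slc17a6 and Slc32a1 were called against PBS brains at day 28 and Slc17a7 at day 21 in BAL17 brains. The direct contrast of day 28 with day 21 called 0 of the 3 by limma. Its differences were -0.28 for Slc17a6, -0.17 for Slc32a1 and 0.39 for Slc17a7. Slc17a6, the glutamate transporter VGLUT2 of thalamus and brainstem, read 10.18, 9.57, 9.95, 9.03 and 9.27 in BAL17VII brains and 8.94, 9.11, 8.86, 8.92 and 9.10 in BAL17 brains at day 28. Slc17a6 levels were 9.08, 9.73, 9.34, 9.02 and 9.13 in BAL17 brains at day 21, against 9.80, 10.21, 9.42, 9.07 and 9.71 in PBS brains. The 5 day 28 BAL17 brains lay close together and low, while BAL17VII and PBS brains spread widely. Slc17a6 fell by 0.66 ± 0.20 (SE, adjusted p = 0.0163) in BAL17 brains at day 28, which was -0.52 (adjusted p = 0.0585) without PBS replicate 2. At day 21 its difference was -0.38 ± 0.20 (SE, adjusted p = 0.117), which was -0.50 (adjusted p = 0.042) without BAL17 replicate 2 and -0.53 (adjusted p = 0.0312) without PBS replicate 4. Slc17a7, the glutamate transporter VGLUT1 of cortex, hippocampus and cerebellar granule cells, read 9.11, 8.94, 9.06, 9.75 and 9.49 in BAL17VII brains and 9.48, 9.38, 9.39, 9.31 and 9.45 in BAL17 brains at day 28. Slc17a7 levels were 8.86, 9.24, 9.03, 8.99 and 8.95 in BAL17 brains at day 21, against 9.39, 9.23, 9.37, 9.66 and 9.67 in PBS brains. At day 28 the BAL17 brains stood inside the PBS range, and at day 21 all but 1 were below it. Slc17a7 fell by 0.45 ± 0.12 (SE, adjusted p = 0.00567) in BAL17 brains at day 21, and the difference was -0.06 ± 0.12 (SE, adjusted p = 0.73) at day 28. The 2 days differed by 0.39 ± 0.12 (SE, adjusted p = 0.127), with no overlap of values. Slc32a1, the GABA and glycine transporter VGAT, read 7.83, 7.21, 7.51, 7.08 and 7.26 in BAL17VII brains and 6.86, 7.09, 7.002, 6.95 and 7.10 in BAL17 brains at day 28. Slc32a1 levels were 7.35, 7.16, 7.05, 7.14 and 7.14 in BAL17 brains at day 21, against 7.62, 7.78, 7.25, 7.14 and 7.42 in PBS brains. The day 28 BAL17 brains were all below the PBS brains, and the other implanted groups overlapped them. Slc32a1 fell by 0.44 ± 0.12 (SE, adjusted p = 0.0117) at day 28, and differed by -0.27 ± 0.12 (SE, adjusted p = 0.0772) at day 21, where it was -0.35 (adjusted p = 0.0293) without PBS replicate 4.

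**Figure D5:**
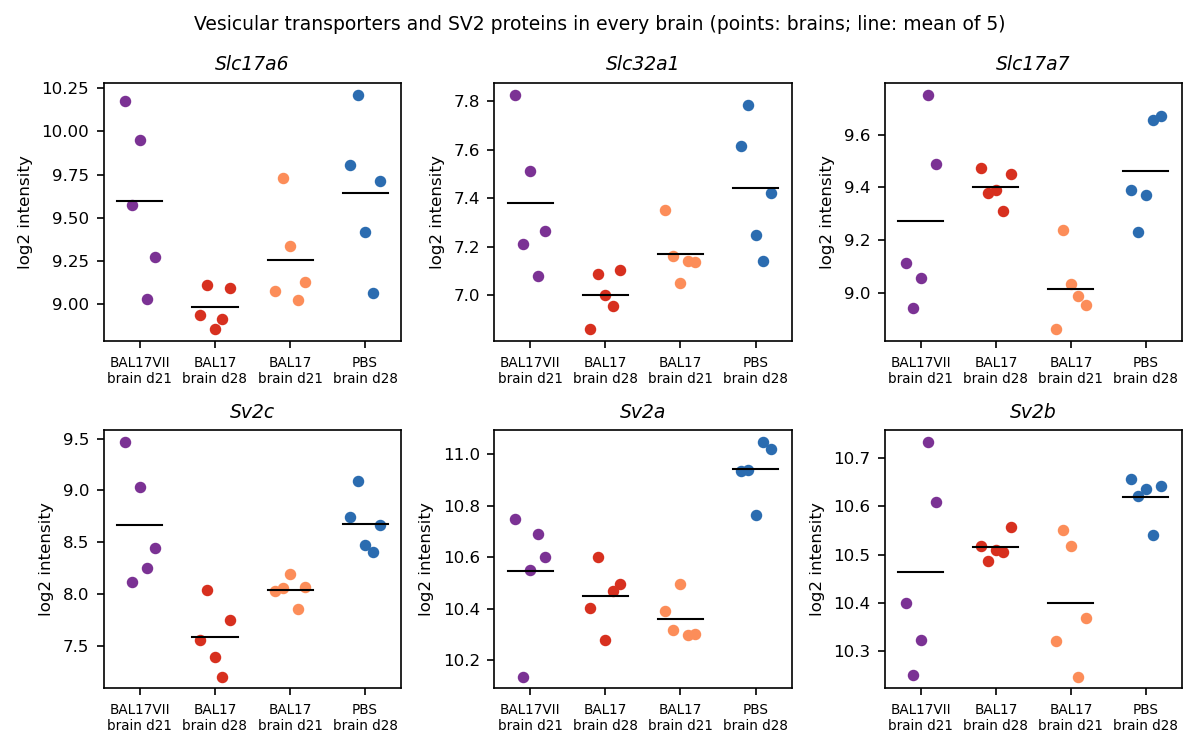
Log2 intensity (vertical axes) of Slc17a6, Slc32a1, Slc17a7, Sv2c, Sv2a and Sv2b in each brain, by group (horizontal axes), where points are brains and lines the mean of 5. In BAL17 brains at day 28 Slc17a6, Slc32a1 and Sv2c are low and Slc17a7 stands inside the PBS range, and Sv2a is below all PBS values in each implanted group. Vertical axes do not start at 0.

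The log2 ratio of Slc17a6 to Slc17a7 within a brain, a measure chosen after the values were seen and given with no test, was 0.33 ± 0.77 in BAL17VII brains, -0.42 ± 0.12 in BAL17 brains at day 28, 0.24 ± 0.17 in BAL17 brains at day 21 and 0.18 ± 0.58 in PBS brains (SD, n = 5 each). Because 2 probe sets can differ in brightness per transcript, its sign has no meaning and only brains can be compared. It ran from -0.54 to -0.27 in BAL17 brains at day 28, against 0.03 to 0.49 at day 21, without overlap. In BAL17VII brains it ran from -0.72 to 1.06, against -0.59 to 0.98 in PBS brains. Markers of thalamus fell in 7 of 8 in BAL17 brains at day 28 and in 5 of 8 at day 21. Cortex markers fell in 0 of 8 at day 28 by limma (0 at an unadjusted p under 0.05) and in 5 of 8 at day 21, where Neurod6, a cortical neuron transcription factor, fell by 1.11 ± 0.21 (SE, adjusted p = 0.000215). In BAL17VII replicates 1 to 5 the ratio was 1.06, 0.63, 0.89, -0.72 and -0.22, and the cerebellum mean 7.91, 8.25, 8.17, 9.50 and 9.21. In PBS replicates 1 to 5 the ratio was 0.42, 0.98, 0.05, -0.59 and 0.04, and the cerebellum mean 9.45, 8.82, 9.52, 9.58 and 9.37. In BAL17 brains at day 21 the lowest cerebellum mean, 8.13 in replicate 5, went with a ratio of 0.18. The part of these regions in the ratio was not tested.

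All 3 neurofilament genes fell in BAL17 brains at day 28, 2 fell at day 21, and all 3 were higher in BAL17VII than in BAL17 brains at day 21. In the same 3 comparisons 21.6%, 32% and 17.3% of all genes tested were called in that direction. Among genes above the lines in every brain the shares were 54.1%, 73.8% and 44.9%. Nefl, the light chain, read 11.48, 11.04, 11.23, 10.80 and 11.04 in BAL17VII brains and 10.68, 10.74, 10.56, 10.55 and 10.54 in BAL17 brains at day 28. Nefl levels were 10.59, 11.06, 10.65, 10.41 and 10.53 in BAL17 brains at day 21, against 11.07, 11.47, 10.94, 10.87 and 11.01 in PBS brains. Replicate 1 of the BAL17VII brains and replicate 2 of the PBS brains were high. Nefl fell by 0.46 ± 0.13 (SE, adjusted p = 0.0106) in BAL17 brains at day 28 and fell by 0.43 ± 0.13 (SE, adjusted p = 0.0101) at day 21, and differed by 0.04 ± 0.13 (SE, adjusted p = 0.884) in BAL17VII brains. With all 32 arrays in the fit Nefl had no call in BAL17 brains at day 28 or day 21 or between BAL17VII and BAL17 brains (adjusted p = 0.144, 0.145 and 0.148). Nefm, the medium chain, read 11.08, 10.36, 10.76, 10.48 and 10.56 in BAL17VII brains and 10.13, 10.10, 10.06, 10.15 and 10.10 in BAL17 brains at day 28. Nefm levels were 9.99, 10.03, 10.01, 9.96 and 10.08 in BAL17 brains at day 21, against 10.72, 10.96, 10.31, 10.30 and 10.37 in PBS brains. No BAL17 brain reached the PBS range or the BAL17VII range. Nefm was higher in BAL17VII than in BAL17 brains at day 21 by 0.63 ± 0.12 (SE, adjusted p = 0.00129). Against PBS brains it fell by 0.43 ± 0.12 (SE, adjusted p = 0.0126) in BAL17 brains at day 28 and fell by 0.52 ± 0.12 (SE, adjusted p = 0.00175) at day 21, and the day 28 call was lost with all 32 arrays (adjusted p = 0.0646). Nefh, the heavy chain, read 10.08, 9.39, 9.74, 9.12 and 9.25 in BAL17VII brains and 8.75, 9.04, 8.86, 8.92 and 9.01 in BAL17 brains at day 28. Nefh levels were 8.99, 9.15, 8.96, 9.04 and 9.07 in BAL17 brains at day 21, against 9.52, 10.05, 9.09, 9.14 and 9.34 in PBS brains. All day 28 BAL17 brains lay below the PBS brains. Nefh fell by 0.51 ± 0.16 (SE, adjusted p = 0.0209) there, which was -0.36 (adjusted p = 0.0736) without PBS replicate 2. At day 21 the difference was -0.38 ± 0.16 (SE, adjusted p = 0.0567), and -0.47 (adjusted p = 0.0281) without PBS replicate 3 and -0.46 (adjusted p = 0.0329) without PBS replicate 4. Its excess in BAL17VII over BAL17 brains at day 21, 0.47 ± 0.16 (SE, adjusted p = 0.0364), was 0.33 (adjusted p = 0.129) without BAL17VII replicate 1, 0.42 (adjusted p = 0.0878) without replicate 3, and 0.45 to 0.48 with no call without BAL17 replicates 1, 3, 4 or 5. That excess was 0.41 (adjusted p = 0.0541) with quantile normalization and 0.38 (adjusted p = 0.0601) with median centring.

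Microtubule and growth cone genes were called in all 6 cases in BAL17 brains at both days, and in all 6 between BAL17VII and BAL17 brains at day 21. At day 28 and day 21, 21.6% and 32% of all genes tested were called lower than in PBS brains. Between BAL17VII and BAL17 brains at day 21, 17.3% were called higher. The shares among genes above the lines in every brain were 54.1%, 73.8% and 44.9%. Tubb3, the neuronal beta tubulin, read 11.12, 10.54, 10.85, 10.56 and 10.65 in BAL17VII brains and 10.20, 10.56, 10.18, 9.95 and 10.15 in BAL17 brains at day 28. Tubb3 levels were 9.96, 10.32, 9.92, 9.97 and 9.97 in BAL17 brains at day 21, against 10.91, 11.06, 10.71, 10.59 and 10.81 in PBS brains. All BAL17 brains lay below the PBS brains, and the BAL17VII brains overlapped them. Tubb3 fell by 0.61 ± 0.12 (SE, adjusted p = 0.000987) in BAL17 brains at day 28 and fell by 0.79 ± 0.12 (SE, adjusted p = 3.06e-05) at day 21, to 57.9% of the PBS intensity, and was higher in BAL17VII than in BAL17 brains at day 21 by 0.72 ± 0.12 (SE, adjusted p = 0.000435). Mapt, which encodes the microtubule-binding protein tau, read 8.59, 8.26, 8.35, 8.57 and 8.54 in BAL17VII brains and 8.22, 8.39, 8.15, 8.30 and 8.40 in BAL17 brains at day 28. Mapt levels were 7.79, 7.998, 7.93, 7.95 and 7.87 in BAL17 brains at day 21, against 8.77, 8.69, 8.68, 8.81 and 8.77 in PBS brains. The groups formed 3 steps without overlap, with BAL17 brains at day 21 lowest, the other implanted brains between, and PBS brains highest. Mapt fell by 0.28 ± 0.07 (SE, adjusted p = 0.0297) in BAL17VII brains, fell by 0.45 ± 0.07 (SE, adjusted p = 0.00015) in BAL17 brains at day 28 and fell by 0.84 ± 0.07 (SE, adjusted p = 5.66e-08) at day 21. It was higher in BAL17VII than in BAL17 brains at day 21 by 0.55 ± 0.07 (SE, adjusted p = 6.14e-05), and higher in BAL17 brains at day 28 than at day 21 by 0.38 ± 0.07 (SE, adjusted p = 0.0121). The call in BAL17VII brains was lost without BAL17VII replicates 2 or 3 or PBS replicates 1, 4 or 5, with -0.23 to -0.28. Gap43, a growth cone protein, read 11.38, 11.11, 11.22, 10.66 and 10.92 in BAL17VII brains and 10.67, 10.65, 10.48, 10.26 and 10.49 in BAL17 brains at day 28. Gap43 levels were 10.48, 10.79, 10.45, 10.31 and 10.45 in BAL17 brains at day 21, against 11.02, 11.12, 11.04, 10.75 and 10.93 in PBS brains. At day 28 the BAL17 brains were below all PBS brains. Gap43 fell by 0.46 ± 0.12 (SE, adjusted p = 0.00618) at day 28 and fell by 0.48 ± 0.12 (SE, adjusted p = 0.0026) at day 21, and differed by 0.09 ± 0.12 (SE, adjusted p = 0.737) in BAL17VII brains.

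The other microtubule genes followed. Map2, the dendritic microtubule protein, fell by 0.24 ± 0.07 (SE, adjusted p = 0.0127) in BAL17 brains at day 28, a call lost under median centring (-0.13, adjusted p = 0.184), and fell by 0.42 ± 0.07 (SE, adjusted p = 5.45e-05) at day 21. Stmn2, a tubulin-binding protein of growing and regenerating axons, fell by 0.42 ± 0.10 (SE, adjusted p = 0.00414) at day 28, which had no call with all 32 arrays (adjusted p = 0.0537), and fell by 0.59 ± 0.10 (SE, adjusted p = 8.76e-05) at day 21. Its relative Stmn3 fell by 0.49 ± 0.15 (SE, adjusted p = 0.0148) at day 28, which was -0.41 (adjusted p = 0.0504) without PBS replicate 2, and fell by 0.77 ± 0.15 (SE, adjusted p = 0.000248) at day 21. A second Stmn3 probe set read 4.33 to 5.32 on all arrays.

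The neuronal identity genes and the calcium sensor Hpca fell in 3 of 3 cases at day 21 and in 2 of 3 at day 28 in BAL17 brains. So did 32% and 21.6% of all genes tested, and 73.8% and 54.1% of genes above the lines in every brain. Rbfox3, which encodes the nuclear marker NeuN, read 9.99, 9.78, 9.94, 10.63 and 10.36 in BAL17VII brains and 10.31, 10.28, 10.29, 10.27 and 10.36 in BAL17 brains at day 28. Rbfox3 levels were 10.11, 9.89, 10.07, 10.10 and 9.96 in BAL17 brains at day 21, against 10.35, 10.25, 10.35, 10.41 and 10.23 in PBS brains. The day 28 BAL17 brains lay inside the PBS range. Rbfox3 fell by 0.29 ± 0.11 (SE, adjusted p = 0.0367) at day 21, a call lost without any 1 of 5 brains (BAL17 replicates 2 and 5, PBS replicates 1, 3 and 4), with -0.26 to -0.29, and differed by -0.02 ± 0.11 (SE, adjusted p = 0.923) at day 28. In BAL17VII brains the difference was -0.18 ± 0.11 (SE, adjusted p = 0.382), and -0.30 (adjusted p = 0.0355) without replicate 4. Eno2, the neuronal enolase of glycolysis, read 9.91, 9.22, 9.64, 9.71 and 9.82 in BAL17VII brains and 9.55, 9.75, 9.40, 9.50 and 9.61 in BAL17 brains at day 28. Eno2 levels were 9.09, 9.48, 9.31, 9.12 and 9.10 in BAL17 brains at day 21, against 9.996, 10.18, 9.87, 10.07 and 10.23 in PBS brains. Each BAL17 brain was below each PBS brain, and BAL17VII replicate 1 overlapped the PBS range. Eno2 fell by 0.41 ± 0.11 (SE, adjusted p = 0.0377) in BAL17VII brains, fell by 0.51 ± 0.11 (SE, adjusted p = 0.0023) in BAL17 brains at day 28 and fell by 0.85 ± 0.11 (SE, adjusted p = 5.61e-06) at day 21, to 55.5% of the PBS intensity. Without BAL17VII replicate 2 its difference in BAL17VII brains was -0.30 (adjusted p = 0.13), and it had no call without BAL17VII replicate 3 or PBS replicates 1, 2, 4 or 5 (-0.37 to -0.42). Hpca, the hippocampal calcium sensor hippocalcin, read 9.80, 9.52, 9.93, 10.04 and 10.03 in BAL17VII brains and 9.90, 10.12, 9.75, 9.65 and 9.79 in BAL17 brains at day 28. Hpca levels were 9.26, 10.10, 9.74, 9.56 and 9.53 in BAL17 brains at day 21, against 10.17, 10.55, 10.22, 10.39 and 10.51 in PBS brains. All implanted brains lay below all PBS brains. Hpca fell by 0.50 ± 0.13 (SE, adjusted p = 0.0279) in BAL17VII brains, fell by 0.52 ± 0.13 (SE, adjusted p = 0.00553) in BAL17 brains at day 28 and fell by 0.73 ± 0.13 (SE, adjusted p = 0.000161) at day 21. Its call in BAL17VII brains was lost without BAL17VII replicates 2 or 3 or PBS replicates 2, 4 or 5, with -0.42 to -0.52.

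Further genes of the same processes were counted from lists that were not picked for how they moved here, though earlier results of these data were known. Of 46 other synaptic vesicle and release genes tested, 5 were lower in BAL17VII brains, 26 in BAL17 brains at day 28 and 38 in BAL17 brains at day 21 than in PBS brains, with medians of -0.18, -0.30 and -0.40. Beside these counts stand the 4.29%, 54.1% and 73.8% called lower among genes that read higher in every brain than in the lines, and 1.64%, 21.6% and 32% among all genes. None was called higher by limma (0, 1 and 0 at an unadjusted p under 0.05). Svop, a vesicle protein related to SV2, fell by 0.47 ± 0.10 in BAL17VII brains and by 0.66 ± 0.10 in BAL17 brains at day 21 (SE, adjusted p = 0.00658 and 2.35e-05). Ppfia2, which encodes a liprin of the active zone, fell by 0.64 ± 0.08 at day 21 (SE, adjusted p = 3.98e-06), and Unc13c, a cerebellar relative of Unc13a, fell by 0.64 ± 0.10 at day 28 (SE, adjusted p = 0.000109). Of 33 other neuronal cytoskeleton genes tested, 2, 23 and 28 were lower, to be read against the same shares. Map6, a microtubule stabiliser, fell by 0.41 ± 0.07 at day 28 and by 0.56 ± 0.07 at day 21, and was higher in BAL17VII than in BAL17 brains at day 21 by 0.43 ± 0.07 (SE, adjusted p = 0.000382, 6.29e-06 and 0.000611). Between BAL17VII and BAL17 brains at day 21, 24 of the 33 cytoskeleton genes and 14 of the 46 vesicle genes were higher, with 0 lower by limma in either list (0 at an unadjusted p under 0.05). In that comparison 17.3% of all genes tested were called higher and 6.82% lower. Among genes that read higher in every brain than in the lines, 44.9% were called higher. Among the members described above, 9 of 9 neurofilament, microtubule and growth cone genes and 14 of the other 26 were called higher there. These counts are to be read against the same 17.3% and 44.9%. No test of a difference between the lists was made.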

How the data were processed

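RNA of 20 brains and 12 cell line samples was measured on Affymetrix arrays. The authors deposited 1 table of linear intensity values, made with Affymetrix Expression Console and RMA per the submitters' processing notes. Versions, and whether lines and brains were normalized together, are not given in the sources used here. The deposited intensities ran from 2.72 to 17825, with array medians of 81.7 to 93.0, and log2 was taken with no further normalization.

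Of 35556 probe sets, 21789 carry 1 gene symbol, 1621 several and 12146 none. Of the 21789, 21698 matched a current gene by Entrez number (GRCm38.p6), which gave 19938 genes, each by its probe set of highest mean. A gene was tested if it lay above the array median on at least 5 brain arrays (11965 genes). One limma 3.58.1 fit (R 4.3.3) of group means over 20 brains gave moderated tests with Benjamini-Hochberg adjustment. It shares 1 estimate of spread, so a standard error is too small where BAL17VII brains vary more. The labels name separate brains by number only, so p-values measure the spread between these samples. The number of arrays limits the precision.

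The 36 genes and all gene lists were chosen with earlier results of these data known. Values in every brain are given for 22 members named by role, except Vamp2, which has no value. They are also given for the 3 members with the smallest adjusted p and the 3 with the largest change in each comparison. Of a list, genes were named from the 3 with the smallest adjusted p. Alternatives were quantile normalization, median centring, other filters, the mean of all probe sets, other variance settings, other sets of arrays, a replicate block and leaving out each brain. The fit was tested on simulated data. Tables and figures used Python 3.11.15, pandas 2.3.3, numpy 2.4.6 and matplotlib 3.10.9.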

Additional observations from a re-analysis of the deposited data

Results flagged for a closer look

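In BAL17 brains at day 21, replicate 2 stood far from the other 4 brains in 5 genes. Vamp1, a vesicle SNARE, was high at 9.90 log2 intensity, against 9.02 to 9.10 in the other brains. Tubb3, the neuronal beta tubulin, was high at 10.32, against 9.92 to 9.97, and Stmn3, a tubulin-binding protein, at 9.33, against 8.35 to 8.60. Syt1, the calcium sensor, was low at 11.76, against 11.96 to 11.99, and Map2, the dendritic microtubule protein, at 10.82, against 10.97 to 11.02. Among PBS brains, Unc13a, the vesicle priming factor, was high in replicate 1 at 9.34, against 8.96 to 9.07. These 6 values passed Dixon's limit of 0.71 for 5 samples, out of 144 sets of 5 brains examined, and chance passes about 1 in 20.

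The difference from PBS brains was itself different in BAL17VII and BAL17 brains at day 21 for 23 genes, and in BAL17 brains at day 28 and day 21 for 2 genes, Stx1a and Mapt, each tested by the direct contrast of the implanted groups.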

How the results depend on the processing

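No alternative reversed a called difference. BAL17VII brains against PBS brains gave 4 calls, against 2 with no filter, 1 with only the compared arrays, 2 with all 32 arrays and 0 to 8 when 1 brain was left out. BAL17 brains at day 28 against day 21 gave 2 calls, against 4 with a stricter filter, 9 with array weights, 7 with only the compared arrays, 5 with a replicate block and 1 to 4 when 1 brain was left out. Against PBS brains, BAL17 brains gave 16 to 22 calls at day 28 and 26 to 31 at day 21 when 1 brain was left out, and BAL17VII against BAL17 brains gave 18 to 25. Calls over all genes were not counted under the alternatives, so these counts have no share of all genes beside them. Median centring moved the mean difference of the 35 genes to -0.23 at day 28 and -0.38 at day 21 (otherwise -0.34 and -0.50). The cause of these shifts was not tested. All alternatives kept 0 of the 4 calls in BAL17VII brains, 11 of 21 at day 28, 24 of 29 at day 21, 15 of 23 between BAL17VII and BAL17 brains, and 1 of 2 between the days (Mapt). The labels do not say if equal replicate numbers pair the brains. In each comparison at most 2 of 5 equal-numbered pairs had deviations correlated above 0.1, the highest at 0.553, which cannot exclude a pairing. The replicate block gave 5, 21, 29, 23 and 5 calls in the order of the comparisons just named.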
